A study of Mus musculus with 6 samples.

Results

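Bile acid synthesis enzymes turn cholesterol into bile acids in the hepatocyte. The 10 genes described here were taken by name: Cyp7a1, Cyp8b1, Cyp27a1, Cyp7b1, Cyp2c70, Baat, Slc27a5, Amacr, Hsd3b7 and Akr1d1. All 10 were found among the 24341 gene symbols of the deposited liver table. The 6 samples are liver of C57BL/6 mice on regular chow, read by sequencing of poly(A) RNA, and all carried the Prkciflox/flox alleles. Each sample is called a liver here, although the labels do not say whether they come from separate animals. The 3 livers labelled knockout also carried AlbCre (Prkciflox/floxAlbCre), a Cre recombinase whose albumin promoter is active in hepatocytes, and the 3 controls did not. Prkci encodes an atypical protein kinase C, and the labels do not say which part of it is deleted. Age is 30 weeks in the labels of each sample but 28 weeks in the design text, and sex is not stated.

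The pathway has a classical and an alternative route. In the classical route Cyp7a1 hydroxylates the cholesterol ring in the rate-limiting step, Hsd3b7 and Akr1d1 modify the ring further, and Cyp8b1 adds the hydroxyl group that makes cholic acid. In the alternative route Cyp27a1 first oxidizes the side chain and Cyp7b1 then hydroxylates the oxysterol. Amacr inverts a side-chain centre before peroxisomal shortening, Cyp2c70 makes muricholic acids in mouse, and Slc27a5 and Baat join the bile acid to coenzyme A and then to taurine or glycine.

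Values were read as FPKM, fragments scaled to transcript length and library size, a unit taken from the values themselves. Being per length, they can be set side by side between genes, but less surely where genes share reads or an estimate failed. The read totals estimated from the steps between low values ran from 15200000 to 17620000 in the livers labelled knockout and from 14780000 to 16540000 in the controls. Prkci was at 5.70, 5.26 and 4.42 FPKM in livers labelled knockout 1, 2 and 3 and at 5.57, 3.65 and 4.44 FPKM in controls 1, 2 and 3, so it was not lower. Since the deleted part is unknown, a value over the whole gene does not check the labels. Xist was at 34.6 to 47.9 FPKM in livers labelled knockout and at 36.1 to 56.3 FPKM in the controls, and the Y-linked genes Ddx3y, Kdm5d and Uty were listed at 0 in all 6. Eif2s3y, also Y-linked, was at 0.036 and 0.079 FPKM in livers labelled knockout 1 and 3 and at 0 in the other 4. With Xist present and Y-linked genes at or near 0, all 6 livers read as female, although the labels do not state sex. Of 10 hepatocyte markers, 9 were in the table, and their summed level ran from 27420 to 33494 FPKM in livers labelled knockout and from 25565 to 42904 FPKM in the controls. Alb, a defining marker, was listed at 0 in all 6 although hepatocytes make much of it, so zeros in this table may be failed estimates. Of the 8 hepatocyte markers tested, 3 had higher and 5 lower means, and the groups did not overlap for the 5 lower ones and for 1 higher one, Hpx, which encodes a heme-binding plasma protein. Over all tested genes 16.3% did not overlap, 5.56% lower and 10.7% higher. The part of this in the results of the members was not tested. Liver labelled knockout 1 stood apart from the rest, with the neutrophil markers given further on, so values without it are also given.

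The upstream sequences of 3 members, picked from these same values, are shown first. Livers labelled knockout 2 and 3 lay above all other livers for Cyp8b1 and below them for Akr1d1 and Cyp2c70. Of all tested genes, 11.9% lay above and 17.7% below in this way, so the pattern is not particular to these members. RefSeq promoter windows on GRCm38.p6 were found for 5 of the 10 members. Amacr, for which these livers also lay above all others, had no window. The bases before the start of Cyp8b1 (chr9:121916306-121916555, minus strand), Akr1d1 (chr6:37529923-37530172, plus strand) and Cyp2c70 (chr19:40187334-40187536, minus strand, without bases that GENCODE counts as transcript) are given from 5′ to 3′ along the gene. Capitals mark matches to the motifs searched.
Cyp8b1: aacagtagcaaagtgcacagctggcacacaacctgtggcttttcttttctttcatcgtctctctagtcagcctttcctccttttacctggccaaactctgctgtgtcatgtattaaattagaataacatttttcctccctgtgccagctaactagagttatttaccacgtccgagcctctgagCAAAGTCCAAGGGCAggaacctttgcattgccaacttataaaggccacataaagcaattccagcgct
Akr1d1: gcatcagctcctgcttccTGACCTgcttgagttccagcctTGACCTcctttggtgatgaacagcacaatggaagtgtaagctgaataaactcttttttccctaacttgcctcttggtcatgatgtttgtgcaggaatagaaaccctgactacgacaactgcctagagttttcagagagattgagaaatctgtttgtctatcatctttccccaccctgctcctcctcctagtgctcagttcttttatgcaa
Cyp2c70: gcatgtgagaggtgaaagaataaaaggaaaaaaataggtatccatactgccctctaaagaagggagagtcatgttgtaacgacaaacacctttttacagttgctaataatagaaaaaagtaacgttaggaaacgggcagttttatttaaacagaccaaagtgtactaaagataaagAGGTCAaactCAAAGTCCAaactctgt
Both strands were searched for AGGTCA, the nuclear receptor hexamer, for CAAAGTCCA, a form of the HNF4 site, for CAAGGNCA, the LRH-1 site, and for TTATGTAA, the D-box of the clock output factors. In Cyp8b1 the HNF4 letters began 67 bases before the start site, and the LRH-1 letters, which overlap their end, began 60 bases before it. The HNF4 letters occur in 0.384% and the LRH-1 letters in 5.53% of 32851 windows of 250 bases. Cyp2c70 held the HNF4 letters and 1 hexamer, which occur in 0.301% and 11.5% of windows of 203 bases. Akr1d1 held 2 hexamers on the other strand, a motif of 14% of windows of 250 bases. The D-box letters, found in 0.819% of windows of 250 and 0.676% of windows of 203 bases, were in none of the 3. The windows of Cyp27a1 and Hsd3b7, not shown, held no match to any motif searched. A match is a description of letters and not a bound site.

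Across the 10 members, 8 had a lower and 2 a higher mean in livers labelled knockout, but 0 passed the test across all genes (limma, Benjamini-Hochberg adjusted p from 0.412 to 0.935). Of 10963 genes tested, 0.0274% passed, 0.00912% higher and 0.0182% lower. At an unadjusted p under 0.05 there were 2 members, Cyp7b1 and Cyp2c70, both lower, where 3.59% of all tested genes were lower, 6.34% higher and 9.93% in either direction at that threshold. The groups did not overlap for 3 members, Cyp7b1, Akr1d1 and Baat, all lower, where 5.56% of tested genes lay wholly lower and 16.3% did not overlap in either direction. The median log2 difference was -0.27 for the members and 0.04 for all tested genes. Differences are livers labelled knockout minus controls, between means of log2(FPKM + 1), with a standard error (SE) and 95% interval from limma. Liver is a mixture, and fewer hepatocytes cannot be told apart from less RNA per hepatocyte in these values.

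**Figure D1:**
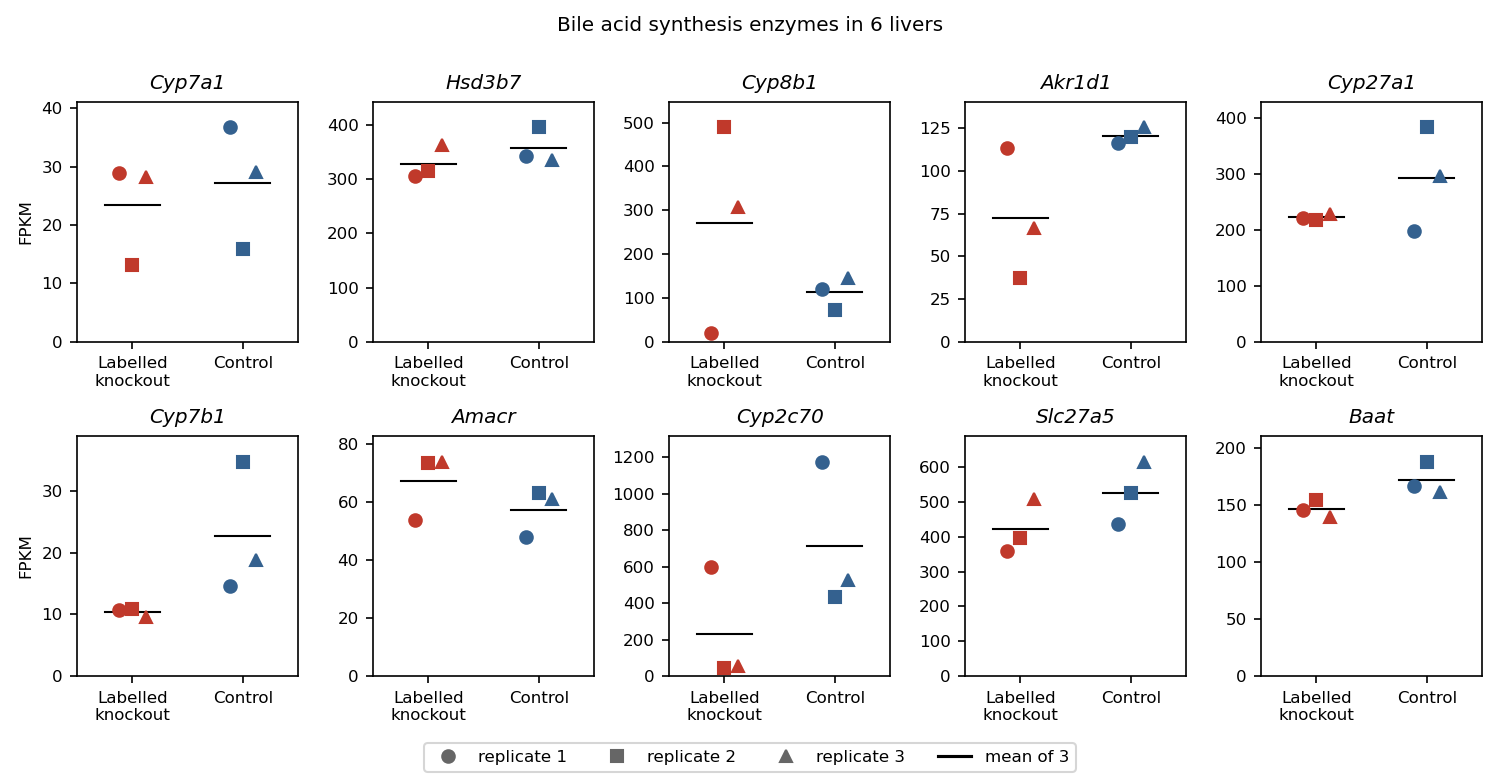
FPKM of each of the 10 enzymes in the 3 livers labelled knockout (red, left) and the 3 controls (blue, right); marker shapes give the replicate number and lines the group means. Cyp7b1, Akr1d1 and Baat do not overlap between groups, while Cyp8b1 spans 19.0 to 489 FPKM within the livers labelled knockout.

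The first enzyme of the classical route varied between livers in both groups. Cyp7a1 (chr4:6265612-6275633, minus strand of mm10) was at 28.9, 13.1 and 28.2 FPKM in livers labelled knockout 1, 2 and 3 and at 36.8, 15.9 and 29.2 FPKM in controls 1, 2 and 3. In both groups the liver numbered 2 was the lowest, and the groups overlapped. The log2 difference was -0.21 (SE 0.40, 95% interval -1.18 to 0.75, limma adjusted p = 0.900), and its sign turned without liver labelled knockout 2 (0.14) or control 1 (0.032). Within same-numbered pairs it was lower in each, with log2 differences of -0.34, -0.26 and -0.047 for numbers 1, 2 and 3.

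Hsd3b7, the dehydrogenase that acts after the first hydroxylation, was among the steadiest members. It lies at chr7:127800604-127803802 on the plus strand and stood at 305, 314 and 362 FPKM in livers labelled knockout 1, 2 and 3 and at 342, 395 and 335 FPKM in the controls. The groups overlapped, with a log2 difference of -0.13 (SE 0.15, limma adjusted p = 0.817). Its exons share 1717 bases with Gm49388 on the same strand and 1729 bases with 9430064I24Rik on the other, and how strand was counted is not stated, so reads of these genes cannot be told apart.

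Cyp8b1, the branch enzyme towards cholic acid, had the largest ratio of highest to lowest level among livers labelled knockout of the 10 members, while Cyp2c70 had the largest SD relative to its mean (136%, against 87.2% for Cyp8b1). Cyp8b1 (chr9:121914356-121916305, minus strand) was at 19.0, 489 and 308 FPKM in livers labelled knockout 1, 2 and 3 and at 121, 71.8 and 146 FPKM in controls 1, 2 and 3. Liver labelled knockout 1 lay below all controls and livers 2 and 3 above all of them. The highest value in this group was 25.7 times the lowest, against 2.04 times in the controls. The estimated reads behind these values ran from 587 to 13006 in livers labelled knockout and from 1945 to 3782 in the controls, with a counting error of at most 4.1% of a value. Over all 6 livers the log2 difference was 0.40 (SE 1.16, 95% interval -2.38 to 3.18, limma adjusted p = 0.935). It was 1.83 without liver labelled knockout 1 (limma adjusted p = 0.0719), -0.48 without 2 and -0.14 without 3, so its direction rests on which liver is included.

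Akr1d1, the reductase that gives the ring its bent shape, lay lower in every liver labelled knockout. Akr1d1 (chr6:37530173-37568815, plus strand) was at 113, 37.1 and 66.5 FPKM in livers labelled knockout 1, 2 and 3 and at 116, 120 and 126 FPKM in the controls. The 3 controls were close together, with an SD of 3.81% of their mean, and liver labelled knockout 1 lay just under them. The log2 difference was -0.87 (SE 0.37, 95% interval -1.77 to 0.027, limma adjusted p = 0.506). It was -1.26 without liver labelled knockout 1 and -0.47 without 2.

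The alternative route showed its clearest separation at Cyp7b1. Cyp7b1, the oxysterol hydroxylase, lies at chr3:18071950-18243338 on the minus strand. It was at 10.7, 10.9 and 9.52 FPKM in livers labelled knockout 1, 2 and 3 and at 14.6, 34.7 and 18.7 FPKM in controls 1, 2 and 3. The livers labelled knockout were nearly equal, all lay below the lowest control, and control 2 was the highest. Mean levels were 10.4 ± 0.727 FPKM in livers labelled knockout and 22.7 ± 10.6 FPKM in controls (SD, n = 3 each). Cyp7b1 had a log2 difference of -0.97 (SE 0.30, 95% interval -1.69 to -0.26), with a limma adjusted p of 0.412. With control 2 left out it was -0.63, and without control 1 it was -1.23. The estimated reads were 300 to 369 in livers labelled knockout and 475 to 1057 in controls, so counting error was at most 5.8% of a value.

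Cyp7b1 is known as a male-biased gene of mouse liver, and 7 of 11 genes of a male-biased list passed the filter on low values. Cyp7b1 itself is 1 of these 7 and 1 of the lower ones. The median log2 difference of the 7 was 0.74, with 4 higher and 3 lower, and it turned to -0.23 without liver labelled knockout 1. The same median was 0.38 without liver labelled knockout 3, 0.16 without control 1 and 0.39 without control 2. The summed level of the list was 1952, 245 and 206 FPKM in livers labelled knockout 1, 2 and 3 and 261, 693 and 195 FPKM in the controls. Most of the sum in liver labelled knockout 1 was Mup20, a major urinary protein gene of a multigene family, at 1676 FPKM there. Serpina1e, another gene of that list with near-identical relatives, was at 4.41, 6.91 and 3.99 FPKM in livers labelled knockout and at 18.6, 212 and 8.84 FPKM in controls. Control 2 was thus the highest of the 6 for both Cyp7b1 and Serpina1e, and the part of this list in the Cyp7b1 result was not tested. Of 12 female-biased genes, all tested, 12 had lower means (median log2 difference -0.93) and 0 passed the limma test. An unadjusted p under 0.05 was found for 1, Cyp3a44, where 9.93% of all tested genes had one. Log2 differences were -4.38 for Cyp3a44, -2.66 for Sult3a1, -1.003 for Cux2, -0.95 for A1bg and -0.91 for Sult2a1, with -1.06 for the male-biased Nudt7. Without liver labelled knockout 1 they were -3.87 for Cyp3a44, -1.21 for Sult3a1, -1.33 for Cux2, -0.87 for A1bg, -0.016 for Sult2a1 and -1.53 for Nudt7. The female-biased median was -0.43 without that liver, -1.41 without liver labelled knockout 3, -1.57 without control 2, -0.53 without control 3 and -0.30 with sample quality weights. The mean log2 level of the female-biased list relative to the controls was -2.46, -1.04 and -0.38 in livers labelled knockout 1, 2 and 3 and 0.096, -0.86 and 0.76 in controls.

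Cyp27a1, the mitochondrial hydroxylase of the side chain, was steady in livers labelled knockout and spread in controls. Cyp27a1 (chr1:74713574-74737892, plus strand) was at 222, 218 and 230 FPKM in livers labelled knockout 1, 2 and 3 and at 199, 384 and 296 FPKM in the controls. The SD was 2.67% of the mean in livers labelled knockout and 31.7% in controls, and control 1 lay below all 3 livers labelled knockout. Cyp27a1 had a log2 difference of -0.34 (SE 0.25, limma adjusted p = 0.686), -0.12 without control 2 and -0.59 without control 1.

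Cyp2c70, which forms muricholic acids, had the largest difference of the 10. Cyp2c70 (chr19:40153353-40187333, minus strand) was at 597, 44.4 and 54.7 FPKM in livers labelled knockout 1, 2 and 3 and at 1176, 432 and 529 FPKM in controls 1, 2 and 3. Livers labelled knockout 2 and 3 lay far below every other liver, and liver 1 lay within the range of the controls. Cyp2c70 had a log2 difference of -2.49 (SE 1.00, 95% interval -4.91 to -0.084, limma adjusted p = 0.502). It passed without liver labelled knockout 1, at -3.69 (limma adjusted p = 0.0310), where 1.37% of tested genes passed, and with sample quality weights, at -3.49 (limma adjusted p = 0.0306), where 4.9% did. In the weighted fit liver labelled knockout 3 had a weight of 8.305, against 0.264 and 0.841 for livers 1 and 2, so the weighted value rests mostly on that liver. Unweighted, it was -1.83 without 2 and -1.97 without 3. Cyp2c70 belongs to a multigene family, and the labels do not say how reads shared with related genes were counted.

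Amacr, the racemase, was 1 of the 2 members with a higher mean. Amacr (chr15:10981756-10996626, plus strand) was at 53.7, 73.4 and 73.9 FPKM in livers labelled knockout 1, 2 and 3 and at 47.8, 63.0 and 61.0 FPKM in the controls. Livers labelled knockout 2 and 3 lay above all controls and liver 1 within their range. The log2 difference was 0.22 (SE 0.18, limma adjusted p = 0.735), and within same-numbered pairs it was 0.17, 0.22 and 0.27. Without control 1 it was 0.096.

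The conjugation enzymes had slightly lower means. Slc27a5, the bile acyl-CoA ligase (chr7:12988346-12998192, minus strand), was at 359, 397 and 509 FPKM in livers labelled knockout 1, 2 and 3 and at 435, 524 and 616 FPKM in the controls. Baat, the amino acid transferase (chr4:49489422-49506557, minus strand), was at 146, 154 and 139 FPKM in livers labelled knockout and at 166, 188 and 161 FPKM in the controls. Slc27a5 overlapped between the groups, and for Baat the gap between them was smaller than the SD of either. The log2 differences were -0.32 (SE 0.21, limma adjusted p = 0.645) for Slc27a5 and -0.23 (SE 0.13, limma adjusted p = 0.599) for Baat. Between same-numbered livers both genes were lower in every pair, with log2 differences of -0.28, -0.40 and -0.27 for Slc27a5 and of -0.19, -0.28 and -0.21 for Baat.

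**Figure D2:**
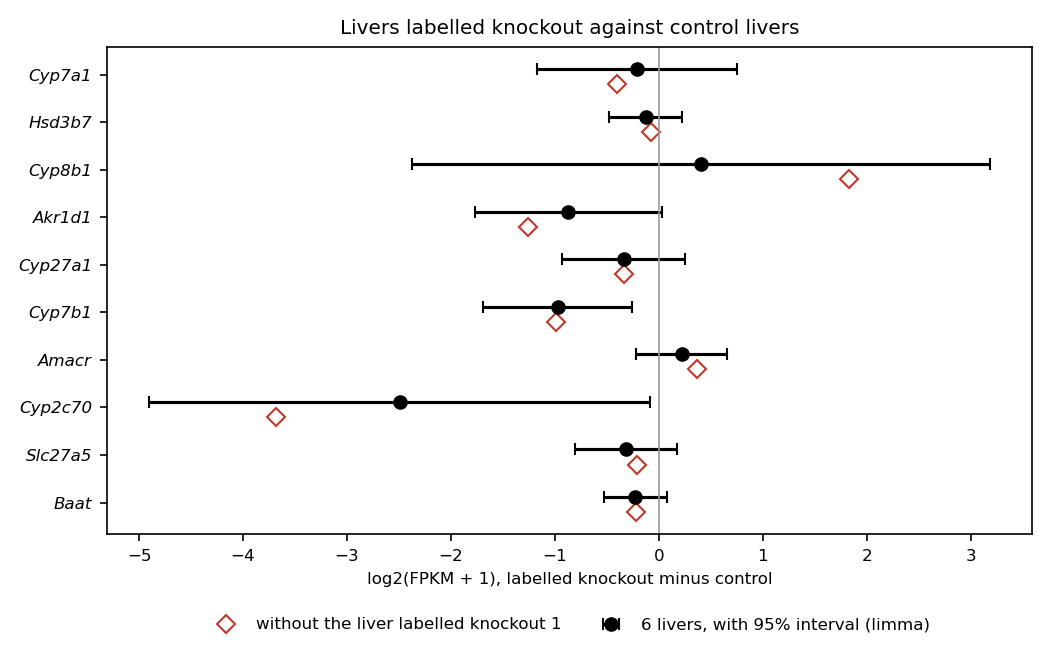
Log2 differences of the 10 enzymes (livers labelled knockout minus controls), with 95% intervals from limma over 6 livers (black) and the value without liver labelled knockout 1 (open red). The interval lies below 0 for Cyp7b1 and Cyp2c70 and is widest for Cyp8b1, from -2.38 to 3.18.

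Same-numbered livers deviated together from their group means, so pairs were also read. This pairing was inferred from these same values, so the paired results are no separate support for a difference. In all 3 pairs 6 members lay lower (Cyp7a1, Cyp7b1, Cyp2c70, Baat, Slc27a5 and Akr1d1), where 16.8% of tested genes did, and 1 lay higher (Amacr), where 25.1% did. In either direction it was 41.9% of tested genes. With the replicate number as a block, 16.2% of tested genes had an unadjusted p under 0.05, against 9.93% without it. Of the members 3 did (Cyp7b1, Cyp2c70 and Akr1d1), and 0 passed after adjustment, with limma adjusted p of 0.234, 0.207 and 0.298. Without liver labelled knockout 1 the log2 difference was -0.40 for Cyp7a1, -0.078 for Hsd3b7, -0.99 for Cyp7b1, -0.34 for Cyp27a1, 0.37 for Amacr, -0.21 for Slc27a5 and -0.22 for Baat.

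The order of the members by level differed between the groups at the top. Hsd3b7 and Cyp2c70 may hold reads of other genes, so their places, and sums and ratios with them, are less sure. In livers labelled knockout the order was Slc27a5, Hsd3b7, Cyp8b1, Cyp2c70, Cyp27a1, Baat, Akr1d1, Amacr, Cyp7a1 and Cyp7b1. In controls it was Cyp2c70, Slc27a5, Hsd3b7, Cyp27a1, Baat, Akr1d1, Cyp8b1, Amacr, Cyp7a1 and Cyp7b1. The ranges of neighbours overlapped from Slc27a5 down to Cyp27a1 and for Akr1d1 and Amacr in livers labelled knockout. In controls they overlapped for Cyp2c70 and Slc27a5, Hsd3b7 and Cyp27a1, Akr1d1 and Cyp8b1, and Cyp7a1 and Cyp7b1. The summed level of the 10 members was 1854, 1751 and 1781 FPKM in livers labelled knockout 1, 2 and 3 and 2655, 2229 and 2318 FPKM in controls. Without Cyp2c70 the other 9 summed to 1257, 1707 and 1727 FPKM in livers labelled knockout and to 1479, 1797 and 1789 FPKM in controls, so the groups then overlapped.

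Ratios between members within a liver do not depend on library scaling. Cyp8b1 over Cyp7a1, both in FPKM, was 0.659, 37.3 and 10.9 in livers labelled knockout 1, 2 and 3 and 3.29, 4.51 and 5.01 in controls 1, 2 and 3. The controls were close together, liver labelled knockout 1 lay under them and livers 2 and 3 over them. Cyp2c70 over Cyp8b1 was 31.4, 0.0907 and 0.178 in livers labelled knockout and 9.71, 6.02 and 3.62 in controls, so liver labelled knockout 1 lay over the controls and livers 2 and 3 under them. Cyp7b1 over Cyp7a1 was 0.369, 0.830 and 0.337 in livers labelled knockout and 0.398, 2.19 and 0.642 in controls, where the groups overlapped.

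**Figure D3:**
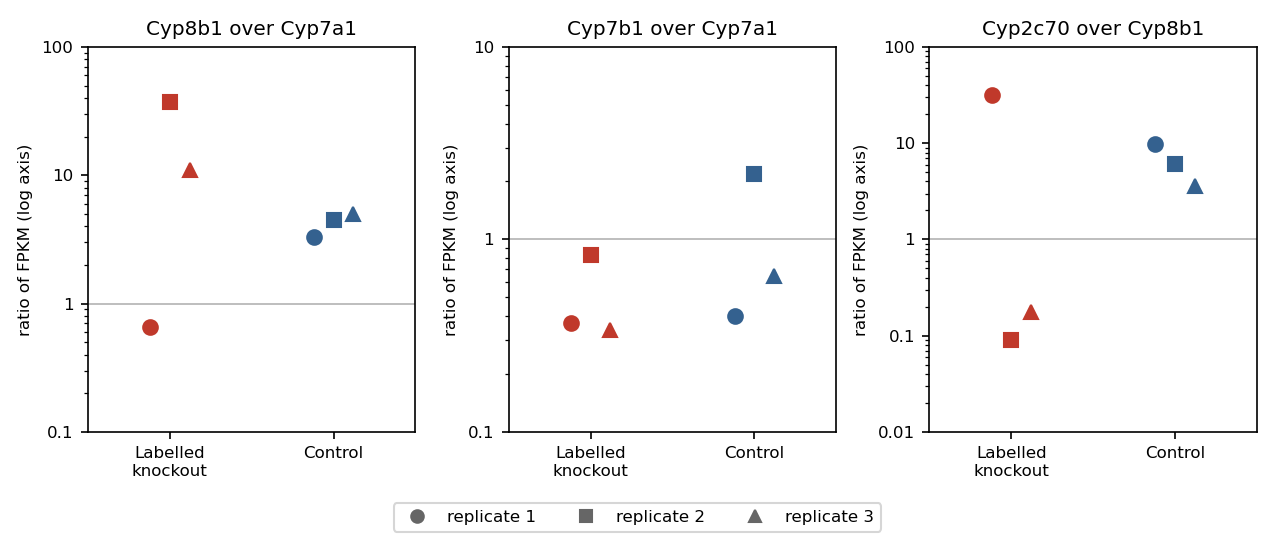
Ratios of FPKM between members in each liver on log axes, livers labelled knockout (red, left) and controls (blue, right), with marker shapes for replicate numbers. Cyp8b1 over Cyp7a1 lies between 3.29 and 5.01 in controls and reaches 37.3 in liver labelled knockout 2.

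Livers labelled knockout 2 and 3 both lay outside the other 4 livers for 4 members, above them for Cyp8b1 and Amacr and below them for Cyp2c70 and Akr1d1. The same held for 29.6% of all tested genes. Genes of cholesterol synthesis and uptake, which supply the substrate, varied with these livers. Their mean log2 level relative to the controls was 0.29, -2.33 and -1.81 in livers labelled knockout 1, 2 and 3 and 0.20, 0.22 and -0.42 in controls. All 23 had lower means, 0 passed the limma test and 1, Ebp, had an unadjusted p under 0.05, where 9.93% of all tested genes did. Without liver labelled knockout 1, where 1.37% of all tested genes passed, 14 of these 23 did, among them Stard4, a sterol transport gene (log2 difference -1.84). With any other liver left out, 0 of the 23 passed. Liver labelled knockout 1 was near the controls for this list and was singled out from these same values. The count without it is thus no separate support for a difference. With all 6 livers Sc5d, a late enzyme of cholesterol synthesis, had a log2 difference of -1.30, and of -1.95 without liver labelled knockout 1. The part of this list in the results of the members was not tested.

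Liver labelled knockout 1 stood apart in some markers of other cells, most in the neutrophil sum, but not in the endothelial or gut sums. Of 5 neutrophil markers 4 were in the table, and their summed level was 266, 9.10 and 13.6 FPKM in livers labelled knockout 1, 2 and 3 and 27.8, 5.43 and 10.6 FPKM in controls, where Retnlg was listed at 0 in control 2. All 8 Kupffer cell and macrophage markers were found, and they summed to 485, 150 and 257 FPKM in livers labelled knockout and to 380, 73.3 and 328 FPKM in controls. The 8 cholangiocyte markers summed to 152, 23.0 and 21.8 FPKM in livers labelled knockout and to 66.6, 54.2 and 35.1 FPKM in controls, most of it Spp1. The sums of 7 endothelial markers ran from 92.7 to 174 FPKM in livers labelled knockout and from 57.5 to 189 FPKM in controls, those of 7 stellate cell markers from 102 to 213 FPKM in livers labelled knockout and from 111 to 164 FPKM in controls, and those of 6 lymphocyte markers from 2.35 to 9.61 FPKM in livers labelled knockout and from 1.17 to 4.99 FPKM in controls. The 5 gut markers summed to 83.5, 186 and 197 FPKM in livers labelled knockout and to 51.0, 97.5 and 68.1 FPKM in controls. Most of that was Fabp2, at 64.4, 184 and 193 FPKM in livers labelled knockout and at 48.1, 95.1 and 58.5 FPKM in controls. Slc10a2 reached 19.1 FPKM in liver labelled knockout 1 and 9.53 FPKM in control 3, and Fgf15 and Cdx2 were listed at 0 in all 6. Both gut markers that were tested, Fabp2 and Slc10a2, had higher means (median log2 difference 0.75). The groups overlapped in the neutrophil, macrophage, cholangiocyte, endothelial, stellate, lymphocyte and gut sums. Liver labelled knockout 2 and control 2, the lowest in Cyp7a1, were also the lowest of their groups in the macrophage and neutrophil sums. The part of these cells in the results was not tested.

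**Figure D4:**
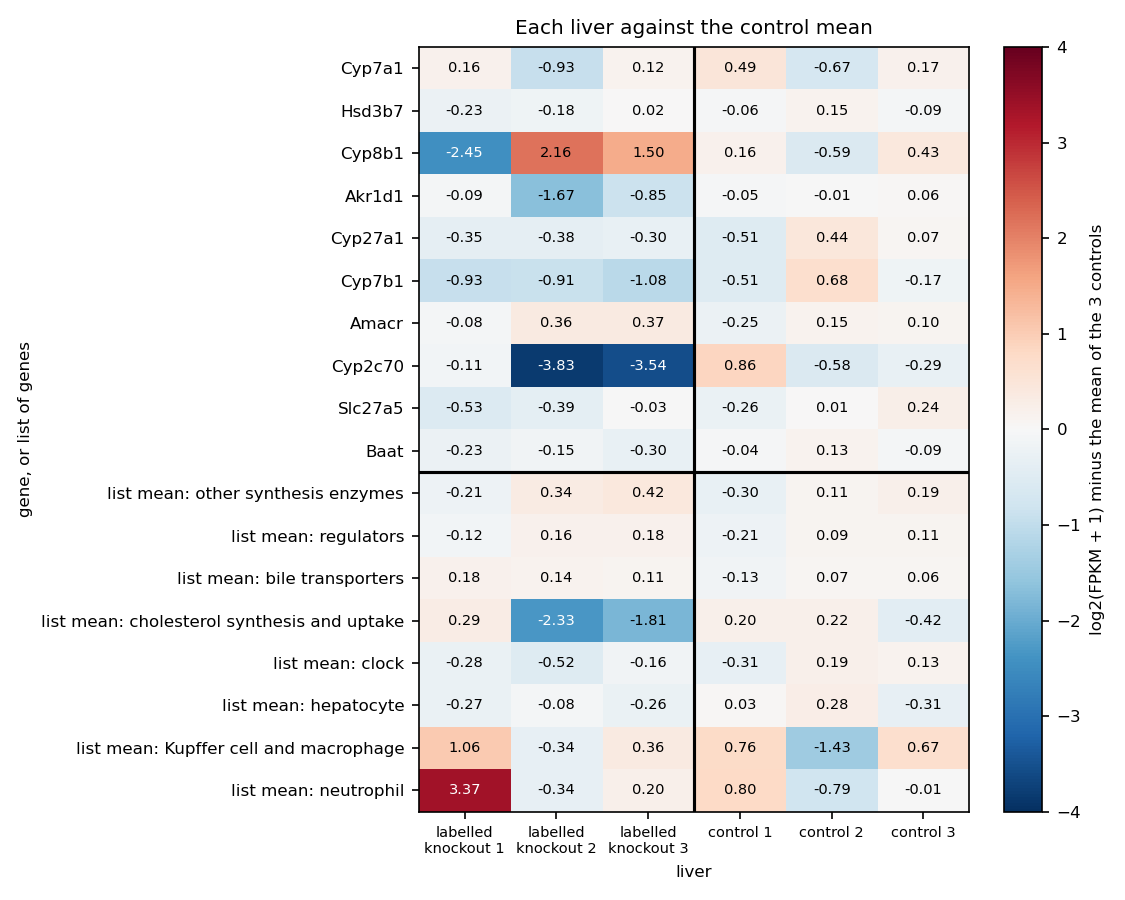
Log2(FPKM + 1) of each member (upper rows) and mean of each gene list (lower rows) in each liver, relative to the mean of the 3 controls; livers labelled knockout are on the left. Cyp2c70 and the cholesterol genes lie lowest in livers labelled knockout 2 and 3, where Cyp8b1 is highest, while Cyp8b1 is lowest and the neutrophil list highest in liver labelled knockout 1 (-2.45 and 3.37).

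Other enzymes of the pathway lay on both sides of the controls. Of 18 such genes 16 were tested, 11 with higher and 5 with lower means (median log2 difference 0.27, or 0.11 without control 1), and 0 passed the limma test. At an unadjusted p under 0.05, 2 were higher and 2 lower, where 6.34% and 3.59% of all tested genes were. The groups did not overlap for 2 higher and 1 lower, where 10.7% and 5.56% of all tested genes did not. Scp2, whose long form is a peroxisomal thiolase of side-chain shortening, was at 467, 663 and 540 FPKM in livers labelled knockout and at 251, 403 and 292 FPKM in controls, without overlap (log2 difference 0.83, SE 0.23, limma adjusted p = 0.386). Acaa1b, a peroxisomal thiolase with a near-identical paralog, was at 540, 1594 and 1894 FPKM in livers labelled knockout 1, 2 and 3 and at 219, 363 and 717 FPKM in controls. Slc27a2, a peroxisomal acyl-CoA synthetase, was at 330, 1414 and 1436 FPKM in livers labelled knockout and at 435, 625 and 685 FPKM in controls. For both genes livers labelled knockout 2 and 3 were the highest. Akr1c14, a hydroxysteroid dehydrogenase with close relatives in its family, was at 108, 73.6 and 83.4 FPKM in livers labelled knockout and at 149, 230 and 192 FPKM in controls, without overlap (log2 difference -1.09, SE 0.22, limma adjusted p = 0.278).

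Regulators of the pathway also lay on both sides. Of 17 genes 16 were tested, 10 with higher and 6 with lower means (median log2 difference 0.10, turning to -0.015 without control 1), and 0 passed the limma test. An unadjusted p under 0.05 was found for 1, where 9.93% of all tested genes had one. That gene was Foxa2, a hepatocyte transcription factor, at 12.7, 12.1 and 16.0 FPKM in livers labelled knockout and at 19.2, 22.4 and 17.1 FPKM in controls (log2 difference -0.49, SE 0.16, limma adjusted p = 0.425). Hnf4a, a nuclear receptor that drives hepatocyte genes, was at 169, 208 and 204 FPKM in livers labelled knockout and at 165, 164 and 187 FPKM in controls. Nr1i3, the xenobiotic receptor CAR, was lowest in the livers numbered 1, at 55.4 FPKM in that labelled knockout and 82.3 FPKM in the control, and ranged from 200 to 266 FPKM in the other 4. Nr1h2, an oxysterol receptor, and Nr1i2, the xenobiotic receptor PXR, had log2 differences of 0.20 (SE 0.11) and 0.39 (SE 0.26).

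The bile acid sensor and its repressor arm were singled out after their values were seen. Nr1h4, the bile acid receptor FXR, was at 52.0, 81.6 and 71.6 FPKM in livers labelled knockout and at 49.2, 65.6 and 63.3 FPKM in controls. Nr0b2, which encodes the repressor SHP, was at 28.4, 45.3 and 30.9 FPKM in livers labelled knockout and at 5.41, 74.2 and 16.8 FPKM in controls. Cyp8b1 followed no single order with Nr0b2. Control 2, the highest in Nr0b2, was the lowest control in Cyp7a1 and Cyp8b1. Liver labelled knockout 2, the highest of its group in Nr0b2, was the lowest of the 6 in Cyp7a1 and the highest in Cyp8b1. The part of Nr0b2 in the results of the members was not tested. Fgfr4, the receptor for the gut hormone that reports bile acid return, was at 16.7 to 18.0 FPKM in livers labelled knockout and at 15.9 to 17.8 FPKM in controls.

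Bile transporters held values on both sides. Of 16 genes in the list 14 were tested, 6 with higher and 8 with lower means (median log2 difference -0.072, or -0.17 without control 1 and -0.16 without liver labelled knockout 3), and 0 passed the limma test. At an unadjusted p under 0.05, 3 were higher and 2 lower, where 6.34% and 3.59% of all tested genes were. The groups did not overlap for 2 higher and 4 lower genes of this list, where 10.7% and 5.56% of all tested genes did not. Abcb4, the phospholipid exporter of the canaliculus, was at 132, 278 and 223 FPKM in livers labelled knockout and at 68.2, 72.9 and 93.8 FPKM in controls, without overlap (log2 difference 1.37, SE 0.29, limma adjusted p = 0.313). Abcg8, part of the canalicular sterol exporter, was at 36.5, 33.9 and 39.6 FPKM in livers labelled knockout and at 58.7, 56.7 and 54.2 FPKM in controls, also without overlap (log2 difference -0.62, SE 0.11, limma adjusted p = 0.246). Slc10a1, the sodium-dependent bile acid uptake carrier, was at 207, 527 and 434 FPKM in livers labelled knockout and at 527, 590 and 544 FPKM in controls (log2 difference -0.61, SE 0.35, limma adjusted p = 0.608). Without liver labelled knockout 1 the Slc10a1 difference was -0.21. Liver labelled knockout 1 was the lowest for both Slc10a1 and Cyp8b1. Slco1b2, an organic anion uptake carrier, was at 323 ± 38.8 FPKM in livers labelled knockout and 416 ± 41.0 FPKM in controls (SD, n = 3 each). Slc10a1 and Slco1b2 also lay lower without overlap. For Slc10a1 the gap was narrow, from 527 FPKM in liver labelled knockout 2 to 527.4 FPKM in control 1. Ephx1, an epoxide hydrolase also linked to bile acid uptake, was at 419, 458 and 428 FPKM in livers labelled knockout and at 149, 199.5 and 196 FPKM in controls, without overlap (log2 difference 1.27, SE 0.16, limma adjusted p = 0.1655). Without liver labelled knockout 1, Abcb4 (limma adjusted p = 0.0310) and Ephx1 (limma adjusted p = 0.0407) passed, where 1.37% of all tested genes did. With any other liver left out, 0 transporters passed.

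**Figure D5:**
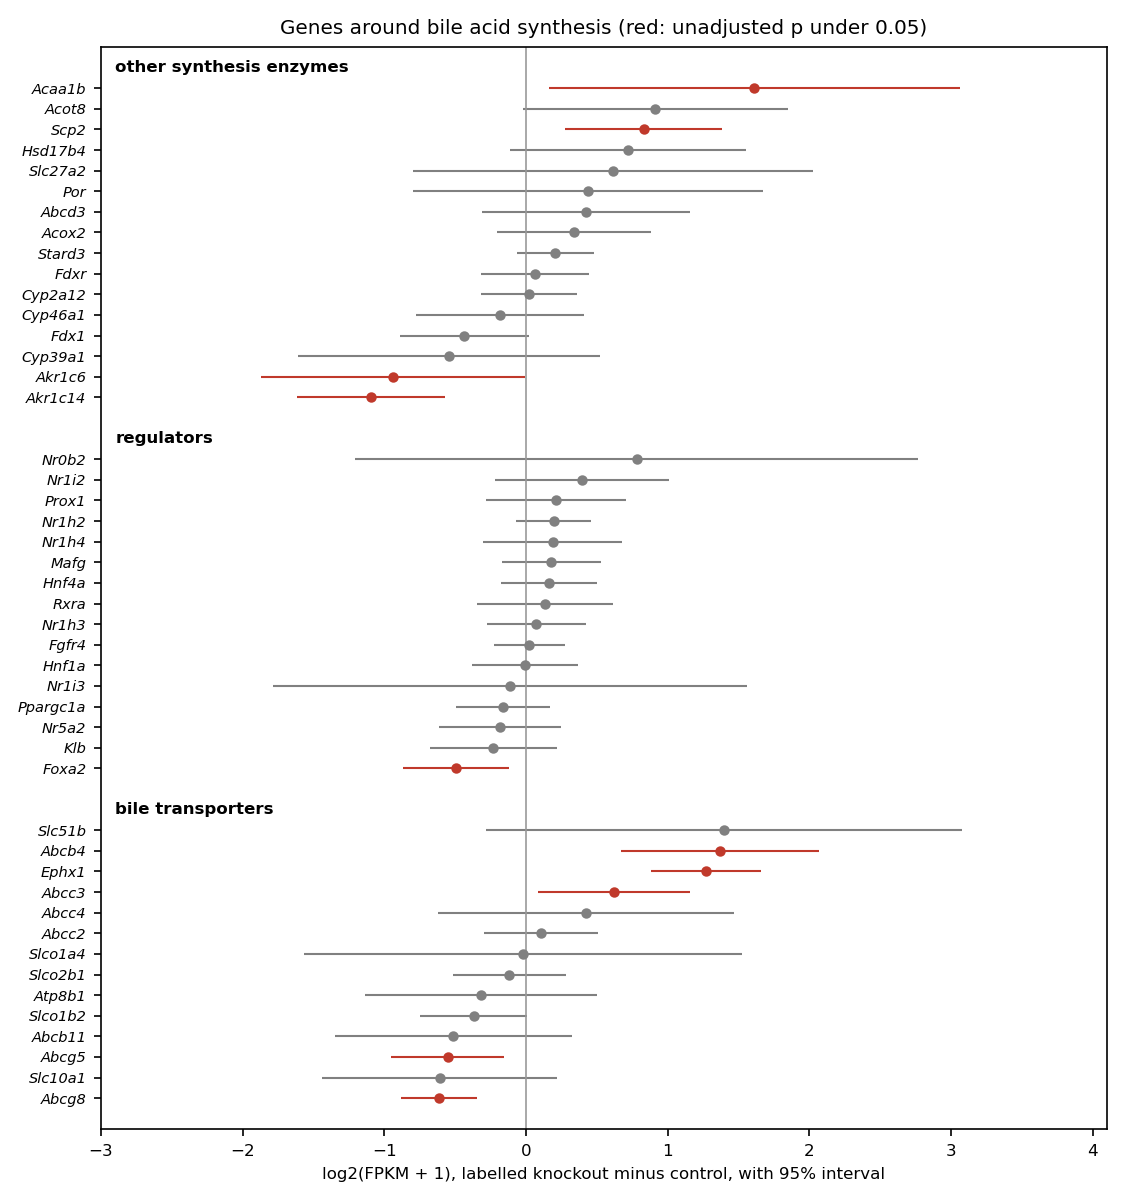
Log2 differences (livers labelled knockout minus controls) with 95% intervals from limma for tested genes of 3 lists around bile acid synthesis; red marks an unadjusted p under 0.05. No gene passed after adjustment, and Abcb4 and Abcg8 stand on opposite sides of 0.

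Clock genes were read because Cyp7a1 is known to follow a daily rhythm, and the labels give no hour of collection. Of 16 clock genes 15 were tested, 4 with higher and 11 with lower means (median log2 difference -0.36, from -0.50 without liver labelled knockout 3 to -0.22 without control 3), and 0 passed the limma test. An unadjusted p under 0.05 was found for 2, Per3 and Nr1d2. Of all tested genes 9.93% had one, and 5.56% lay wholly lower. Log2 differences were -1.21 for Per3 and -0.53 for Nr1d2, both lower without overlap, -0.43 for Cry2 and -0.71 for Bhlhe40, which was at -1.34 without liver labelled knockout 1. Dbp, a clock output factor, was at 37.5, 7.62 and 49.2 FPKM in livers labelled knockout 1, 2 and 3 and at 34.3, 84.8 and 88.1 FPKM in controls 1, 2 and 3. Liver labelled knockout 2 was the lowest of the 6 in Dbp and in Cyp7a1, but control 2, low in Cyp7a1, was high in Dbp. The part of these genes in the results was not tested.

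The genes nearest in profile to 3 members were found by the root mean square distance of centred log2(FPKM + 1) values over the 6 livers, among 7239 genes. For Cyp7a1, whose own spread by this measure was 0.507, Irgm2 was the nearest (0.0952). For Cyp7b1, with a spread of 0.605, the nearest were Ugt2b1 (0.212) and Ugt1a6b (0.233). For Cyp8b1, with a spread of 1.49, the nearest were Rab30 (0.667) and Lgals4 (0.718). The distance is not scaled to the spread, so it cannot be compared between members. The nearest of 7239 genes over 6 livers is a description and no sign of a link. Rab30 was at 3.88, 49.2 and 36.8 FPKM in livers labelled knockout 1, 2 and 3 and at 5.60, 5.21 and 19.9 FPKM in controls.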

How the data were processed

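Per the labels' protocols, RNA was extracted from frozen liver, poly(A) RNA was selected, and directional libraries were sequenced from 1 end. Per the submitters' processing notes, STAR and DESeq2 were among the tools, on build mm10, and their roles and versions are not stated. The deposited table holds FPKM for 24341 symbols in 6 libraries, a unit read from its values. No 2 libraries were identical.

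The filter asked for 1 FPKM or more in 3 or more of the libraries and left 10963 genes, all 10 members among them. They were tested on log2(FPKM + 1) with limma 3.58.1 in R 4.3.3 (eBayes with trend), with Benjamini-Hochberg adjustment over all tested genes at 0.05. The steps were run on simulated data with noise drawn independently for each gene. The simulation held no liver effects shared between genes, so it does not check how the test behaves with them. An exact two-sided permutation test of 3 against 3 cannot give p under 0.1, so none was run. Whether samples are separate animals is not stated, and p-values cover only the spread between these samples, which may be technical.

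Read totals were estimated from genes with 1 transcript over 1500 bases and values under 0.5 FPKM. Of these values 60.7 to 64.9% came within 0.05 of a whole read. Deviations of same-numbered libraries from their group means correlated at 0.477, 0.279 and 0.283 across 10963 genes. Those of libraries with unlike numbers correlated from -0.384 to 0.12. Deviations within a group cancel out, so like and unlike correlations are tied to each other. The numbers were taken to pair the samples from these values, and the pairing was not tested otherwise.

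Members and lists were chosen with earlier results of these data known. Named genes are the members, the 3 genes of smallest p and the 2 of highest mean in each list, with no list gene passing, and the 2 nearest profiles of 3 members. Some genes that this rule names are not reported here. Other genes named (Nr1h4, Nr0b2, Fgfr4, Alb, Hpx, Retnlg, Spp1, Fabp2, Slc10a2, Fgf15, Cdx2, Ddx3y, Kdm5d, Uty, Eif2s3y) belong to the lists and were picked after their values were seen, and Prkci is the targeted gene. Genes sharing exons with a member are named from the annotation. Gene positions are from GENCODE M21 (mm10) and promoter sequences from RefSeq (GRCm38.p6).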

Additional observations from a re-analysis of the deposited data

How the results depend on the processing

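The members and lists were refitted under 14 alternatives, which also included another pseudocount, rescaling by median ratios and a fit without trend. For Cyp27a1, Akr1d1, Baat, Slc27a5 and Amacr the direction held and none passed in any of the 14. With sample quality weights, 311 genes were called higher and 226 lower, 2953 had an unadjusted p under 0.05, and 2 members passed, Cyp7b1 (-0.94, limma adjusted p = 0.0473, range 0.0473 to 0.822 over 14 alternatives) and Cyp2c70 (-3.49, limma adjusted p = 0.0306, range 0.0306 to 0.877). The weights put most on liver labelled knockout 3 (8.305). With these weights 5 members had an unadjusted p under 0.05, Hsd3b7 turned to 0.035, and 5 other enzymes, 3 transporters, 11 cholesterol genes, 1 clock, 1 male-biased and 1 female-biased gene passed. The male-biased median was -0.037 with the weights and -0.12 with a filter at 5 FPKM, where 1 gene was called lower and the transporter median was -0.22. Without a filter, and with quantile normalization, 1 member had an unadjusted p under 0.05. With the replicate block 1773 genes did, and the block changed no other call of a member.

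With any 1 liver left out, 0 to 73 genes were called higher, 0 to 74 lower, and 645 to 1908 had an unadjusted p under 0.05. Of the members 0 to 1 passed (Cyp2c70 without liver labelled knockout 1) and 1 to 4 had an unadjusted p under 0.05. The log2 difference ran from -0.55 to 0.14 for Cyp7a1, from -0.48 to 1.83 for Cyp8b1 and from -3.69 to -1.83 for Cyp2c70. Cyp7a1 turned without liver labelled knockout 2 (0.14) or control 1 (0.032), and Cyp8b1 without liver labelled knockout 2 (-0.48) or 3 (-0.14). From 0 to 2 transporters and 0 to 14 cholesterol genes passed. Medians ran from -0.015 to 0.20 for regulators, -0.17 to -0.051 for transporters and -0.23 to 0.82 for male-biased genes, where -0.015 was without control 1 and -0.23 without liver labelled knockout 1. Medians also ran from 0.11 to 0.36 for other enzymes, -0.50 to -0.22 for clock genes, -1.57 to -0.43 for female-biased genes and -2.10 to -0.77 for cholesterol genes. The cause of these shifts was not tested. Values given with 5 livers also rest on fewer samples.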
